A study of Mus musculus with 28 samples.

Results

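The guanylate-binding protein genes Gbp2 to Gbp11 were taken as the 10 annotated mouse genes of these names, out of 49550 annotated genes on chromosomes 1 to 19 and X. Of these, 4 lay on chromosome 3 and 6 on chromosome 5. For each gene, reads of 2 histone marks were counted from gene start to gene end plus 2 kb on both sides. The first mark, H3K9me3, is trimethylation of lysine 9 of histone H3 and typical of silenced chromatin. The second, H3K9Ac, is acetylation of the same lysine and typical of active promoters. Both were mapped by immunoprecipitation of chromatin cut with micrococcal nuclease and by sequencing. The cells were MC38, a mouse colon adenocarcinoma line, and B16OVA, a mouse melanoma line that is called B16 here.

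Each line was studied as a Setdb1 knockout (KO) and as a control. The control cells had been transduced with an empty pCRISPR-v2-puro construct and the KO cells with a construct carrying a guide against Setdb1, the gene of an enzyme that methylates histone H3 at lysine 9. Cells of all groups grew in puromycin, and the labels name no interferon treatment. There were 3 numbered libraries for each of the 4 groups (MC38 KO, MC38 control, B16 KO and B16 control) and each mark, 24 in all. The study was concerned with splice junctions between exons and transposable elements, and the Gbp genes are set here against that design. Nothing in the labels says that the 3 libraries came from separate cultures or from more than 1 clone: the p-values therefore describe how the libraries vary, which may be technical variation only.

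Guanylate-binding proteins are large GTPases that cells make in quantity after interferon gamma. They coat vacuoles that hold parasites and bacteria, break them open, and help inflammasomes sense what is released. Promoters of interferon-inducible genes commonly hold palindromic GAS elements, through which interferon gamma acts, and ISRE elements, which interferon regulatory factors bind.

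The chromosome 3 cluster holds, in order, Gbp5 (142496934 to 142522344), Gbp7 (142530336 to 142550151), Gbp3 (142560016 to 142573213) and Gbp2 (142620663 to 142638008), with Gbp2b, a relative outside the studied set, between Gbp3 and Gbp2. The chromosome 5 cluster holds Gbp8 (105012513 to 105053609), Gbp9 (105076464 to 105110357), Gbp4 (105115767 to 105139586), Gbp10 (105215699 to 105239533), Gbp6 (105270702 to 105295871) and Gbp11 (105323026 to 105346476), the last annotated as a transcribed pseudogene. These are GRCm38.p6 positions, the assembly of mm10. A RefSeq promoter table of the same build matched 4 of the 10 genes, all on chromosome 3 and all on the plus strand. H3K9Ac islands covered the 5′ ends of Gbp7, Gbp3 and Gbp2 in every library, that of Gbp5 in 8 of 12 and that of Gbp2b in none. The promoters of the 4 matched genes and of Gbp2b are shown. Each runs from 250 bases before the start site to 50 after it. Capitals mark matches to the GAS letters TTCNNNGAA, where N is any base, and to the ISRE core, which is GAAA, 2 bases of any kind and GAAA. Both strands were searched. All the ISRE matches lay on the minus strand and so read TTTC, 2 bases and TTTC here, and no GAS match overlapped an ISRE match.
Gbp5 (chr3:142496684-142496983): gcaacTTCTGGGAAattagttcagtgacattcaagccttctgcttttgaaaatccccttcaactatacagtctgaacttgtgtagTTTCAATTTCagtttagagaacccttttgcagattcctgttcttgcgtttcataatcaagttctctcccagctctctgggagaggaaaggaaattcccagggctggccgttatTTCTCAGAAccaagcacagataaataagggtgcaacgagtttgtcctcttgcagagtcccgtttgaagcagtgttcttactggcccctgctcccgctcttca
Gbp7 (chr3:142530086-142530385): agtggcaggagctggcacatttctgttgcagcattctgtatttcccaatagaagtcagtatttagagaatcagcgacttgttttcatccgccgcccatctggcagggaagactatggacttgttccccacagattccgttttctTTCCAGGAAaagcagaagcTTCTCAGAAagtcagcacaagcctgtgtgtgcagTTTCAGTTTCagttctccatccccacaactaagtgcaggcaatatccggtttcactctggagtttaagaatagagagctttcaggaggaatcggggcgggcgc
Gbp3, first start site (chr3:142559794-142560093): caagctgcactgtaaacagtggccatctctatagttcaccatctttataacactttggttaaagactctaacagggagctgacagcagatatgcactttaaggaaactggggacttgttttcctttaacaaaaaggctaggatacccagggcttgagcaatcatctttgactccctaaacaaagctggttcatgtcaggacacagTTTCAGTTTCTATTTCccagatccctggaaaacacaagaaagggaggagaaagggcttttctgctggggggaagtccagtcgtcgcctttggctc
Gbp2 (chr3:142620413-142620712): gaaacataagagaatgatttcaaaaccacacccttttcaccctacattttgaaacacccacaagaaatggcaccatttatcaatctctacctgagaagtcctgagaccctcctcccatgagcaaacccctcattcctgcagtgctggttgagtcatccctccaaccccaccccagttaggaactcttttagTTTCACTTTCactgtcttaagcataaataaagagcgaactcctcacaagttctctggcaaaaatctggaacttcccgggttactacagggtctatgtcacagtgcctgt
Gbp2b (chr3:142594597-142594896): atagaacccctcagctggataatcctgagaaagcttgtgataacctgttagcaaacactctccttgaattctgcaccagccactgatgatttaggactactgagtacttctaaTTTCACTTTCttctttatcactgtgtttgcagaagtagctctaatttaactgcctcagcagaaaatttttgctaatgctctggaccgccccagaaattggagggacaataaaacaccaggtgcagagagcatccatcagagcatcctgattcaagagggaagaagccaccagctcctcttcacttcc

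An ISRE core match was present in the promoters of all 4 matched members and of Gbp2b, whereas 3.44% of 32851 promoters in the table hold one. Gbp3 had 2 overlapping matches at its first start site, and its second listed start site had no match to either motif. GAS matches were found in Gbp5 and Gbp7, 2 in each, against 8.3% of all promoters with at least 1. Counted from the start site, the ISRE core began at position -59 in Gbp2, -53 in Gbp7, -45 and -39 in Gbp3, -165 in Gbp5 and -137 in Gbp2b. A match describes letters only.

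Island reads are the reads inside enriched stretches (islands) that the authors called in each library, and a value of 0 means that no island was called, not that no reads were there. The 12 H3K9Ac libraries held 28453371 to 78087809 island reads and the 12 H3K9me3 libraries 15200766 to 45419584. Levels are given as RPM, island reads per 1000000 island reads of the library after TMM scaling, and levels of different genes are compared as RPM per kb of region. Among the H3K9me3 libraries, MC38 KO replicate 3 stood apart, with islands over 215 Mb of the genome, where MC38 KO replicate 1 had 563 Mb. Melanocyte markers summed to 189 to 326 RPM of H3K9Ac in MC38 KO and 202 to 285 RPM in MC38 control libraries, against 926 to 1305 RPM in B16 KO and 957 to 1573 RPM in B16 control libraries, and Tyr, Tyrp1 and Dct had no H3K9Ac island in MC38. The sum of gut epithelium markers did not set MC38, the line labelled colon adenocarcinoma, apart, with 150 to 193 RPM in MC38 KO, 152 to 178 RPM in MC38 control, 146 to 179 RPM in B16 KO and 133 to 180 RPM in B16 control libraries. Of its 8 genes, Krt8, an epithelial keratin gene, was called higher in H3K9Ac in MC38 (34.2 ± 11.5 RPM in MC38 control and 11.9 ± 5.61 RPM in B16 control libraries, adjusted p = 0.0317 in edgeR) and lower in H3K9me3 (no island in MC38 control and 7.83 ± 1.65 RPM in B16 control libraries, adjusted p = 0.0257). No other gene of this list was called between the control lines in either mark. In H3K9Ac the means of Epcam, Krt18, Krt20 and Cdx2 were also higher in MC38 control, and those of Vil1, Cdx1 and Cdh1 lower. In H3K9me3 the means of Cdh1 and Cdx1 were higher in MC38 control, and those of Vil1, Krt20 and Epcam lower. Leukocyte markers summed to 68.5 to 98.0 RPM in MC38 KO and 66.0 to 86.6 RPM in MC38 control libraries, against 39.3 to 68.4 RPM in B16 KO and 49.4 to 63.5 RPM in B16 control libraries. H3K9Ac on Setdb1 was 110.3 ± 5.46 RPM in MC38 KO and 95.6 ± 7.46 RPM in MC38 control libraries, and 78.6 ± 9.09 RPM in B16 KO and 76.3 ± 5.31 RPM in B16 control libraries (SD, n = 3 each), which does not check a knockout made by a guide.

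H3K9Ac was concentrated on the chromosome 3 genes and on 2 of the chromosome 5 genes. Gbp2, Gbp3, Gbp7, Gbp6 and Gbp9 had an H3K9Ac island in all 12 libraries, as did 20434 of the 49550 annotated genes. The mean level over the 12 libraries was highest on Gbp2, at 0.7996 RPM per kb (range 0.316 to 1.55), then Gbp3 at 0.645 (0.448 to 0.930), Gbp7 at 0.337 (0.125 to 0.585), Gbp6 at 0.180 (0.148 to 0.255), Gbp9 at 0.170 (0.126 to 0.231) and Gbp5 at 0.140 (0 to 0.253). Each of these ranges over libraries overlaps that of the next gene. Within a library the order was steadier for some neighbours: Gbp2 was above Gbp3 in 10 of 12 libraries, Gbp3 above Gbp7 in 12 and Gbp7 above Gbp6 in 10, whereas Gbp6 was above Gbp9 in 6 and Gbp9 above Gbp5 in 7. The other 4 genes were near the bottom, with means of 0.0410 RPM per kb on Gbp11, 0.0329 on Gbp4, 0.0124 on Gbp8 and 0.00590 on Gbp10, and they had islands in 4, 3, 2 and 1 of the 12 libraries. Entry to the test required 10 or more island reads per library on average, which 9 of the 10 members reached, all but Gbp10.

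**Figure D1:**
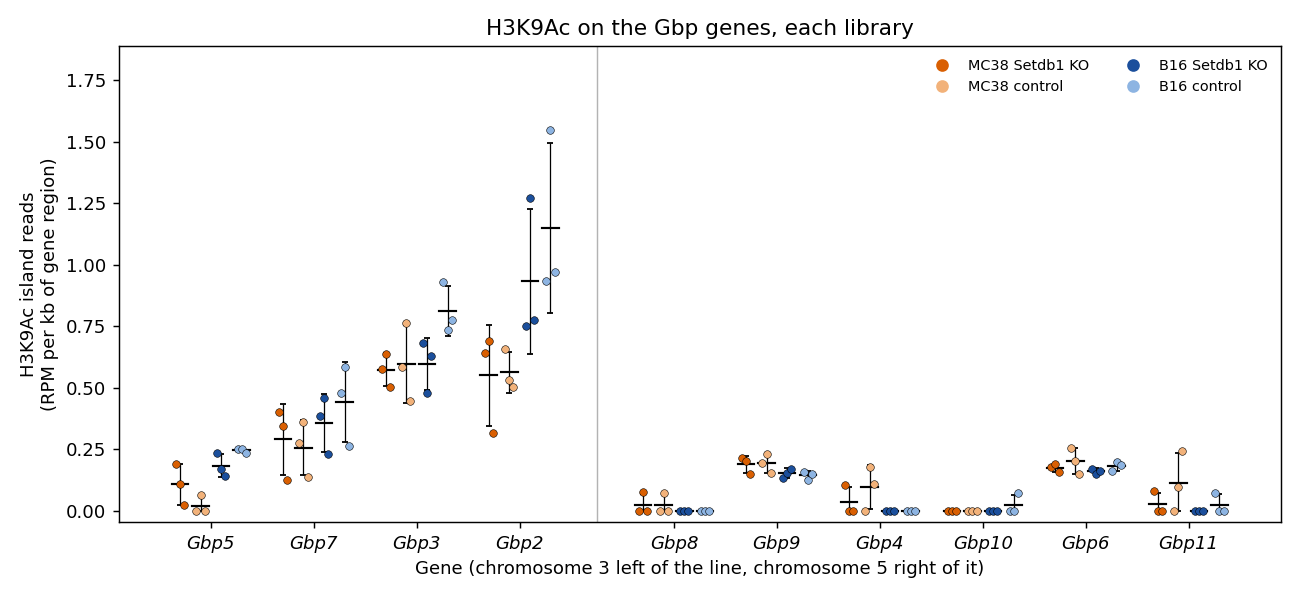
H3K9Ac in RPM per kb of gene region (vertical axis) for the 10 Gbp genes (horizontal axis), with 1 point for each of the 3 libraries of MC38 Setdb1 KO, MC38 control, B16 Setdb1 KO and B16 control cells; horizontal bars are means and whiskers the SD, stopped at 0. Gbp2 has the highest mean, 0.7996 RPM per kb over 12 libraries, and Gbp8, Gbp4, Gbp10 and Gbp11 have no island in most libraries.

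Islands were also set against the starts and ends of the genes. On chromosome 3, an H3K9Ac island covered the 5′ end of Gbp7, Gbp3 and Gbp2 in 12 of 12 libraries. Coverage was read at the end base of the gene, which lies inside the letters printed above. The 5′ end of Gbp5 was covered in 2 of 3 MC38 KO, 0 of 3 MC38 control, 3 of 3 B16 KO and 3 of 3 B16 control libraries. The 3′ end of Gbp7 was covered in 1 of 3 MC38 KO, 2 of 3 MC38 control, 0 of 3 B16 KO and 1 of 3 B16 control libraries, and that of Gbp5, Gbp3 and Gbp2 in none. By comparison, 45.8% to 51.0% of the 26793 genes with a known strand had an H3K9Ac island over the 5′ end, depending on the library. On chromosome 5, where the table gives no strand, the end of Gbp9 with the higher coordinate was covered in 12 of 12 libraries and the end with the lower coordinate in 0 of 12. H3K9me3 covered the 5′ end of none of the 4 chromosome 3 members in any library, against 3.90% to 9.89% of genes.

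Members of the family are similar in sequence, and how reads that map to several members were treated is not given in the sources used here. Some regions also overlap other genes: that of Gbp3 shares 6815 bp with the long non-coding RNA gene Gm40158 and that of Gbp10 shares 6223 bp with Gm31785. Around the Gbp2 promoter the counts cannot be given to 1 gene. The regions of Gbp2 and Gbp2b share 2517 bp that include the start of Gbp2, and this shared stretch held 30.4% to 80.2% of the H3K9Ac reads counted for Gbp2, depending on the library. It also held 99.8% or more of the Gbp2b reads in MC38 libraries, and 63.3% to 66.6% of them in B16 libraries. The 5′ end of Gbp2b itself lay under no H3K9Ac island in any library. Its 3′ end lay under one in 3 of 3 B16 KO and 3 of 3 B16 control libraries and in no MC38 library.

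H3K9Ac on the Gbp genes of MC38 cells showed no change with loss of Setdb1 that passed the test. Gbp2, which is recruited to the vacuoles of Toxoplasma in mouse cells, had 13.7, 14.8 and 6.74 RPM in MC38 KO libraries, against 14.1, 11.3 and 10.7 RPM in MC38 control libraries. Gbp3 had 9.95, 10.96 and 8.65 RPM in MC38 KO libraries, against 10.04, 13.1 and 7.70 RPM in MC38 control libraries. The KO and control values of both genes overlapped, and the log2 changes were -0.03 (SE 0.34) on Gbp2 and -0.06 (SE 0.25) on Gbp3. Gbp7, linked in mouse macrophages to killing of intracellular bacteria, had 9.57, 8.18 and 2.98 RPM in MC38 KO libraries, against 6.57, 8.55 and 3.26 RPM in MC38 control libraries. Gbp9 had 8.11, 7.66 and 5.67 RPM in MC38 KO libraries, against 7.40, 8.74 and 5.87 RPM in MC38 control libraries. Gbp6, also linked in mouse macrophages to defence against bacteria, had 5.20, 5.49 and 4.57 RPM in MC38 KO libraries, against 7.44, 5.91 and 4.31 RPM in MC38 control libraries. These groups overlapped too, with log2 changes of 0.17 (SE 0.54) on Gbp7, -0.04 (SE 0.33) on Gbp9 and -0.21 (SE 0.38) on Gbp6.

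Gbp5, which promotes assembly of the NLRP3 inflammasome, was the exception in pattern. Its H3K9Ac level was 5.59, 3.15 and 0.744 RPM in MC38 KO libraries, against 0, 1.89 and 0 RPM in MC38 control libraries. All 3 KO libraries had an island and 1 of 3 control libraries did, but the groups overlapped and the adjusted p in edgeR's quasi-likelihood test was 1 (log2 change 2.32, SE 1.82). MC38 control replicate 2 decided this: without it the adjusted p was 0.0484, with no island left in the control group. In edgeR, 0 of 9 members were called in MC38 KO against control, where 0.126% of 33359 genes were called. At an unadjusted p under 0.05 there were 0 members, against 3.14% of genes, and DESeq2 also called 0, against 2.62% of genes. No member lay above or below without overlap (1.91% and 1.88% of genes).

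In B16 cells the H3K9Ac values of 2 chromosome 3 genes were lower in every KO library than in every control library, without passing the test. Gbp5 had 6.94, 5.02 and 4.21 RPM in B16 KO libraries, against 7.44, 7.34 and 6.95 RPM in B16 control libraries. Gbp3 had 11.7, 8.23 and 10.8 RPM in B16 KO libraries, against 15.99, 12.6 and 13.3 RPM in B16 control libraries. For these genes the KO and control libraries did not overlap, as for 3.29% of all genes tested in this direction and 4.79% in the other. The log2 changes were -0.43 (SE 1.73) on Gbp5 and -0.45 (SE 0.25) on Gbp3. The fit shares 1 spread over the MC38 and B16 libraries, so the SE on Gbp5 also takes in the MC38 libraries at 0. Gbp2 had 16.03, 27.2 and 16.6 RPM in B16 KO libraries, against 19.95, 33.1 and 20.7 RPM in B16 control libraries, and Gbp7 had 9.15, 10.95 and 5.47 RPM in B16 KO libraries, against 11.4, 13.9 and 6.31 RPM in B16 control libraries. Replicate 2 was the highest library of each group for both genes, the groups overlapped, and the log2 changes were -0.30 (SE 0.34) and -0.31 (SE 0.54). Within same-numbered libraries, which varied together, the KO value was below the control value in 3 of 3 pairs for Gbp5, Gbp7, Gbp3 and Gbp2, and for Gbp2b. The share of all genes with such pairs was not computed, so this count has no background. Gbp2 and Gbp2b share reads and are not separate cases. With the replicate number as a block, 0 members were called in B16 KO (on Gbp3 the log2 change was -0.44, SE 0.23, with an adjusted p of 0.974 in edgeR).

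The chromosome 5 genes with an island in every library had smaller log2 changes in B16. Gbp9 had 4.98, 5.82 and 6.51 RPM in B16 KO libraries, against 6.00, 4.78 and 5.72 RPM in B16 control libraries (log2 change 0.07, SE 0.33). Gbp6 had 4.97, 4.31 and 4.77 RPM in B16 KO libraries, against 4.75, 5.84 and 5.38 RPM in B16 control libraries (log2 change -0.18, SE 0.38). In edgeR, 0 of 9 members were called in B16 KO against control, where 0.0839% of all genes were called, and 0 had an unadjusted p under 0.05, against 4.16% of genes. DESeq2 called Gbp11 lower, as it did 3.07% of genes in either direction, although only B16 control replicate 1 had an island there. No member passed edgeR's test of the difference between the KO effects of the lines (0 of 9 called and 0 at an unadjusted p under 0.05, where 0.183% and 4.28% of genes were). DESeq2 called that difference on Gbp11 alone, where 4.17% of genes were called, and edgeR called it on Gbp5 once MC38 control replicate 2 was left out (adjusted p = 0.0487).

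Between the control cells of the lines, the largest H3K9Ac differences among members with an island in every library lay on chromosome 3. Gbp2 averaged 12.03 ± 1.78 RPM in MC38 control and 24.6 ± 7.37 RPM in B16 control libraries (SD, n = 3 each), and every MC38 control library lay below every B16 control library. The log2 difference was -1.03 (SE 0.34), with an adjusted p of 0.0631 in edgeR. The same-numbered H3K9Ac libraries varied together, and in edgeR with the replicate number as a block the adjusted p of Gbp2 was 0.0310. It was 0.00915 for reads within 2 kb around the 5′ end (log2 difference -1.19, SE 0.25) and 0.0287 without MC38 KO replicate 3. That 5′-end region takes in all 2517 bp shared with Gbp2b, so its difference cannot be given to Gbp2 alone. Over all genes, the block called 4305 higher and 4302 lower of 33359. The 5′-end region, counted only for genes with a known strand, called 2397 in either direction. Gbp5 averaged 0.630 ± 1.09 RPM in MC38 control and 7.24 ± 0.258 RPM in B16 control libraries, again with no overlap (log2 difference -3.51, SE 1.91, adjusted p = 0.239 in edgeR). Its value also rested on MC38 control replicate 2, without which the adjusted p was 0.00220. Gbp7 averaged 6.13 ± 2.67 RPM in MC38 control and 10.6 ± 3.89 RPM in B16 control libraries (log2 difference -0.78, SE 0.54), with an adjusted p of 0.348 in edgeR and 0.0443 with the block.

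The other members with an island in every library had smaller differences. Gbp3 averaged 10.3 ± 2.73 RPM in MC38 control and 13.98 ± 1.77 RPM in B16 control libraries (log2 difference -0.44, SE 0.25). Gbp9 averaged 7.34 ± 1.44 RPM in MC38 control and 5.50 ± 0.637 RPM in B16 control libraries (log2 difference 0.42, SE 0.33), and Gbp6 averaged 5.89 ± 1.56 RPM in MC38 control and 5.32 ± 0.544 RPM in B16 control libraries (log2 difference 0.15, SE 0.38). Of the members with islands in few libraries, Gbp11 had 0, 2.60 and 6.68 RPM in MC38 control libraries, against 2.02, 0 and 0 RPM in B16 control libraries. Gbp4 had 0, 4.92 and 3.08 RPM and Gbp8 0, 3.32 and 0 RPM in MC38 control libraries, and neither had an island in B16 control libraries. These groups overlapped, and the adjusted p in edgeR was 0.751 on Gbp11, 0.194 on Gbp4 and 0.278 on Gbp8. Thus the 4 chromosome 3 members had lower means in MC38 and the 5 chromosome 5 members tested had higher means. The sign on Gbp6 turned when MC38 control replicate 1 was left out (log2 difference -0.059). Gbp4 and Gbp8 had no H3K9Ac island in any B16 library and entered the test through MC38 alone, which fixed their direction. Gbp10, which did not enter, had its only island in B16 control replicate 3 (1.97 RPM). The split by chromosome thus depends in part on the read filter. Without the block, 0 of 9 members were called between the control lines, where 19.5% of genes were called, 1 (Gbp2) had an unadjusted p under 0.05, against 31.8% of genes, and DESeq2 called Gbp2 lower and Gbp4 higher, against 32.3% of genes in either direction. Members below without overlap numbered 2 (Gbp5 and Gbp2) of 9, against 19.6% of genes, and members above 0, against 19.3%. Melanocyte markers were also lower in MC38 (202 to 285 RPM in MC38 control against 957 to 1573 RPM in B16 control libraries), and the part of line identity in these differences was not tested.

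**Figure D2:**
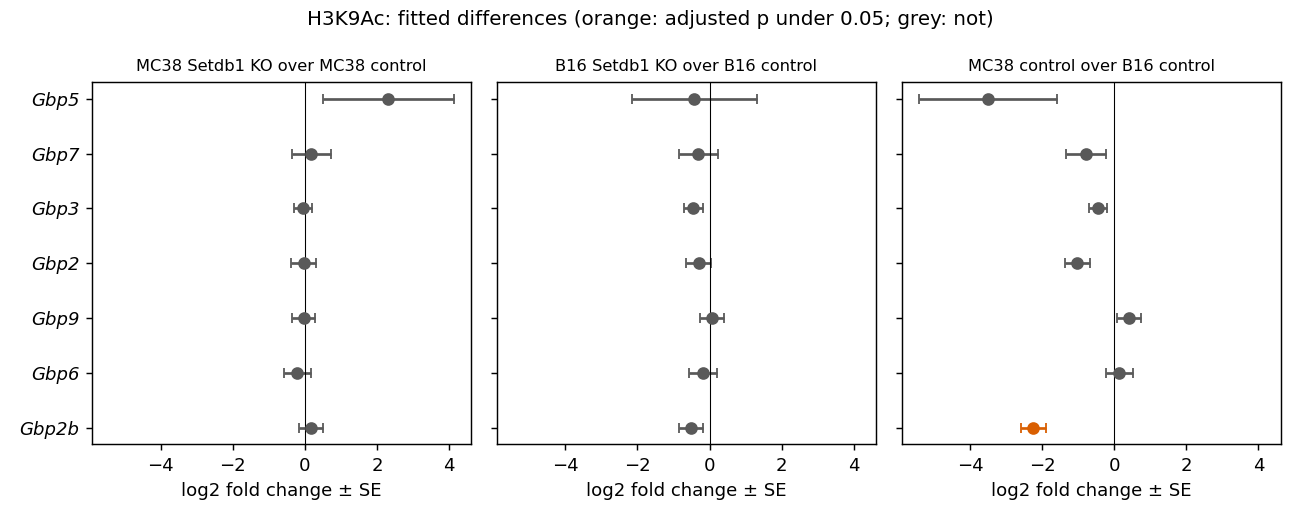
Fitted log2 fold changes of H3K9Ac with SE (horizontal axes, the same scale in each panel) for the 6 Gbp genes with islands in most libraries and for Gbp2b (vertical axis), for MC38 Setdb1 KO over control, B16 Setdb1 KO over control and MC38 control over B16 control. Only Gbp2b between the control lines passes an adjusted p of 0.05 (log2 difference -2.25); Gbp2 lies at -1.03 with an adjusted p of 0.0631.

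The neighbour Gbp2b, whose counted region takes in the Gbp2 start, had the only H3K9Ac difference called between the control lines among the Gbp genes of both clusters. It had 4.27, 8.00 and 4.46 RPM of H3K9Ac in MC38 control libraries, against 22.6, 33.5 and 23.4 RPM in B16 control libraries, with no overlap. The log2 difference was -2.25 (SE 0.35) and the adjusted p 0.00172 in edgeR. Windows of 5 kb, which do not depend on gene borders, placed it. The window 142615001 to 142620000 holds the 3′ end of Gbp2b and ends before the Gbp2 promoter printed above. There H3K9Ac was 1.09, 3.18 and 1.13 RPM in MC38 control libraries, against 16.5, 22.3 and 16.1 RPM in B16 control libraries. In the next window, 142620001 to 142625000, with the printed promoter and the Gbp2 start, it was 13.1, 7.96 and 9.53 RPM in MC38 control libraries, against 12.7, 18.5 and 12.4 RPM in B16 control libraries. The groups were far apart in the first window (log2 difference -3.34, adjusted p = 0.0672) and overlapped in the second (log2 difference -0.51, adjusted p = 0.362). The call on the first window depended on the fit: it passed when only the 6 control libraries were fitted (adjusted p = 0.0184) and without MC38 KO replicate 3 (0.00200).

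**Figure D3:**
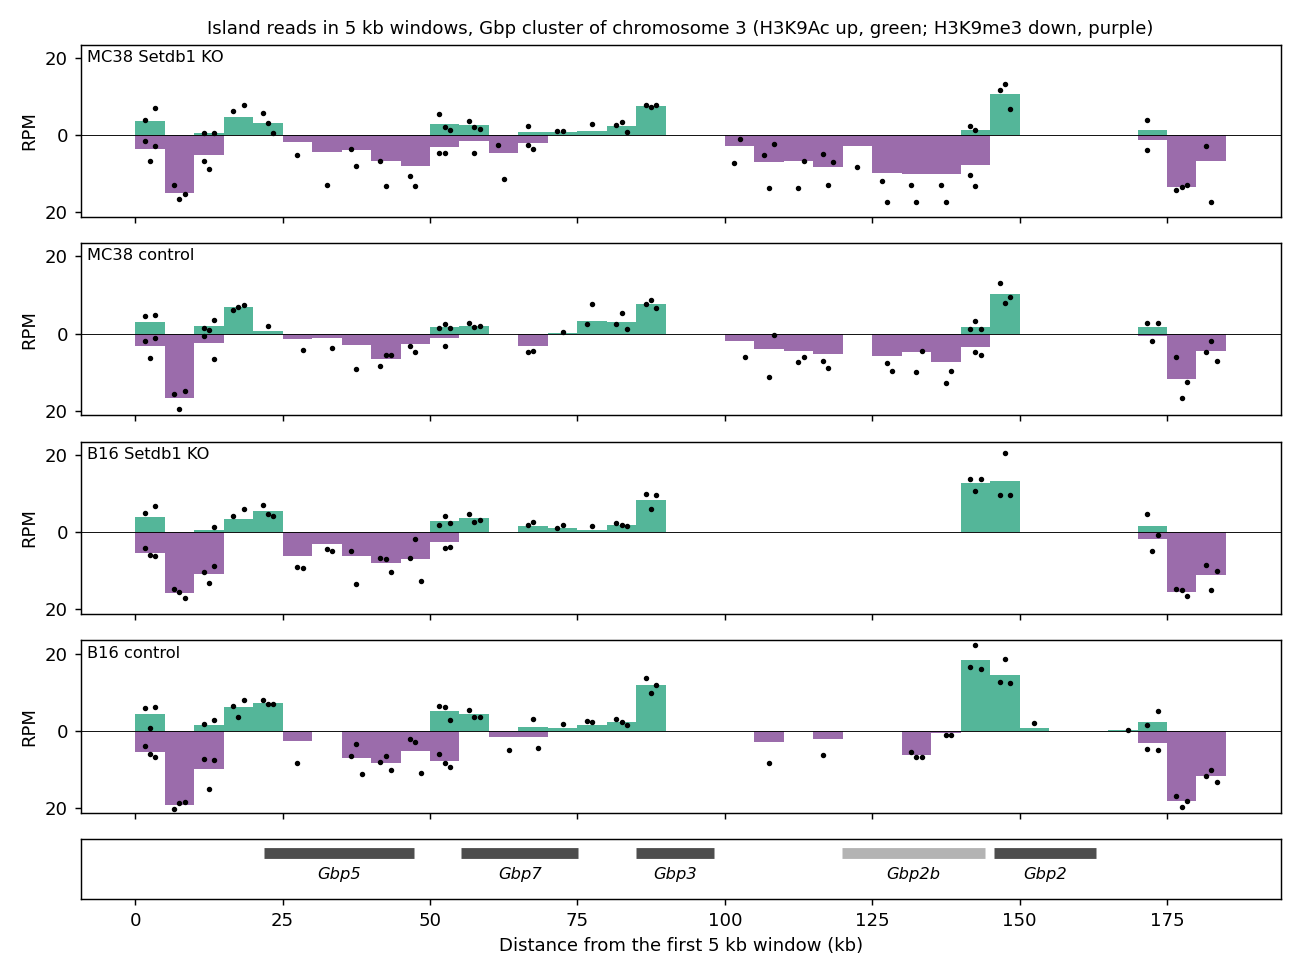
RPM in 5 kb windows (vertical axes, H3K9Ac up and H3K9me3 down) along the chromosome 3 cluster, by distance from the first window in kb (horizontal axis), for MC38 Setdb1 KO, MC38 control, B16 Setdb1 KO and B16 control cells; bars are means of 3 libraries, dots single libraries with an island, and grey bars the genes (Gbp2b lighter). H3K9Ac islands cover the left ends of Gbp7, Gbp3 and Gbp2 in every library, and that of Gbp5 in 8 of 12, none of them MC38 control. The window left of Gbp2 is at 1.09 to 3.18 RPM in MC38 control libraries and 16.1 to 22.3 RPM in B16 control libraries.

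Of the 113 windows of 5 kb across the clusters, each extended by 20 kb, 37 lay on chromosome 3 and 76 on chromosome 5. For H3K9Ac, 29 had enough reads for the test (14 on chromosome 3 and 15 on chromosome 5), and edgeR called 0 of them in MC38 KO (0.0798% of all windows called), 0 in B16 KO (0.16%) and 0 between the control lines (11%). At an unadjusted p under 0.05 there were 1 in MC38 KO (3.77% of all windows), 0 in B16 KO (4.78%) and 3 between the control lines (24.7%). Without overlap, 1 lay below and 0 above in MC38 KO (1.93% and 1.81% of all windows), 3 below and 0 above in B16 KO (2.2% and 4.61%), and 6 below and 0 above between the control lines (16.4% and 14.8%). Islands in all 3 libraries of a group were found in 6 of the chromosome 3 windows in MC38 KO, 8 in MC38 control, 7 in B16 KO and 9 in B16 control. On chromosome 5 they were found in 5 windows in MC38 KO, 3 in MC38 control, 4 in B16 KO and 5 in B16 control. Among them, the windows at the higher-coordinate ends of Gbp9 and inside Gbp6 (105110001 to 105115000 and 105290001 to 105295000) were acetylated in all 12 libraries. Between Gbp6 and Gbp11, the window 105305001 to 105310000 had 1.96, 6.72 and 3.39 RPM in MC38 KO and 0, 4.42 and 4.14 RPM in MC38 control libraries, and no island in any B16 library.

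H3K9me3 was patchier than H3K9Ac: no member had an island in all 12 libraries. The same held over all genes: with 49550 annotated, 2777 had an H3K9me3 island in all 12 libraries and 20434 an H3K9Ac island. Gbp5 had the highest mean, 0.724 RPM per kb (range 0 to 1.79), with an island in 11 of 12 libraries. It was followed by Gbp11 at 0.550 RPM per kb in 7 libraries, Gbp8 at 0.308 in 7, Gbp9 at 0.251 in 9, Gbp7 at 0.161 in 5, Gbp4 at 0.151 in 5, Gbp10 at 0.0786 in 4 and Gbp6 at 0.0278 in 1. Every range started at 0, so the order is a description of means. Gbp3 had no H3K9me3 island in any library and Gbp2 had 1.08 and 0.512 RPM in 2 MC38 KO libraries and none in the other 10, and these 2 genes, with the highest H3K9Ac per kb, did not enter the H3K9me3 test. The other 8 members did.

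**Figure D4:**
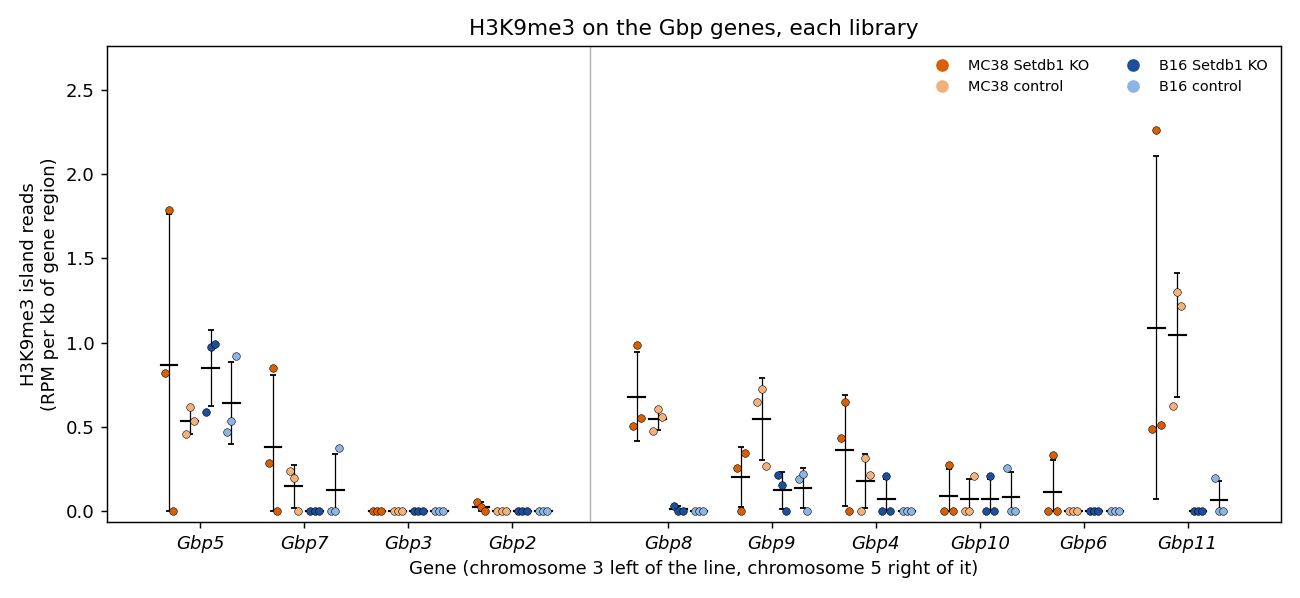
H3K9me3 in RPM per kb of gene region (vertical axis) for the 10 Gbp genes (horizontal axis), with 1 point for each of the 3 libraries of MC38 Setdb1 KO, MC38 control, B16 Setdb1 KO and B16 control cells; horizontal bars are means and whiskers the SD, stopped at 0. Gbp8 and Gbp11 carry islands in all 6 MC38 libraries and in 1 B16 library each, Gbp3 in none.

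The chromosome 5 genes Gbp8 and Gbp11 carried H3K9me3 islands in every MC38 library and in few B16 libraries. Gbp8 had 22.6, 44.4 and 24.7 RPM of H3K9me3 in MC38 KO libraries and 21.4, 27.4 and 25.02 RPM in MC38 control libraries. In B16 it had 1.34 RPM in 1 KO library, no island in the other 2, and none in any control library. MC38 control libraries had islands over 20.5% of the Gbp8 region on average. Between the control lines edgeR called Gbp8 higher in MC38 (adjusted p = 0.0308). Gbp8 met the read filter only through its MC38 libraries, since its 1 island in B16, in KO replicate 1, held 35 reads. No fold change is given against a group without islands. This was the only one of 8 members called, where 2.82% of genes were called higher and 7.14% in either direction, and 2 members (Gbp8 and Gbp4) had an unadjusted p under 0.05, against 24.9% of genes. The call did not survive leaving out any 1 of the 6 control libraries (adjusted p 0.0572 to 0.0896), nor stricter islands (0.127).

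Gbp11 had 13.4, 62.2 and 14.03 RPM of H3K9me3 in MC38 KO libraries and 17.1, 35.7 and 33.4 RPM in MC38 control libraries. It had no H3K9me3 island in the B16 KO group, against 5.37, 0 and 0 RPM in B16 control libraries. All 3 MC38 control libraries lay above all 3 B16 control libraries, with an adjusted p of 0.262 in edgeR, and of 0.0167 without B16 control replicate 1, the B16 library with an island. Gbp9 had 24.5, 27.5 and 10.1 RPM in MC38 control libraries, against 7.21, 8.32 and 0 RPM in B16 control libraries, also without overlap (adjusted p = 0.664). Members above without overlap thus numbered 3 of 8 (Gbp8, Gbp9 and Gbp11), against 13.6% of genes, and members below 0, against 20.7%. Of these, Gbp8 had entered the test only through MC38, the line where it was higher. DESeq2 called Gbp8 and Gbp4 higher in MC38, as it did 27.5% of genes in either direction. Abcg3, the gene next to the cluster on its lower-coordinate side, had 29.4, 79.9 and 77.8 RPM in MC38 control libraries, against 0, 12.2 and 7.63 RPM in B16 control libraries, so higher MC38 values were not confined to the Gbp genes. Lrrc8b, on the other side, had no H3K9me3 island in any library.

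**Figure D5:**
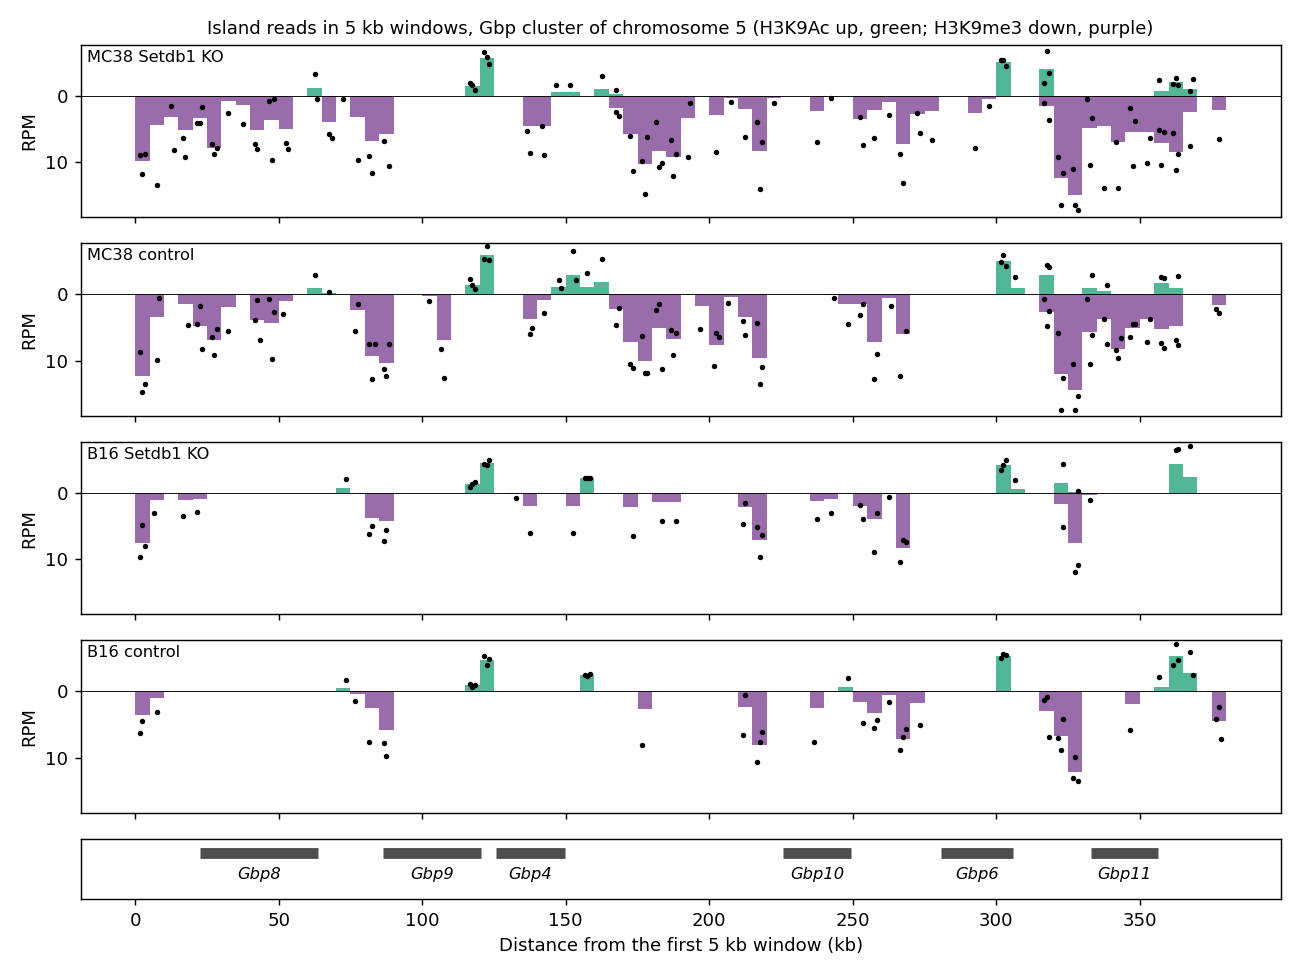
RPM in 5 kb windows (vertical axes, H3K9Ac up and H3K9me3 down) along the chromosome 5 cluster, by distance from the first window in kb (horizontal axis), for MC38 Setdb1 KO, MC38 control, B16 Setdb1 KO and B16 control cells; bars are means of 3 libraries, dots single libraries with an island, and grey bars the genes. H3K9me3 windows with an island in all 3 libraries number 14 in MC38 KO and 18 in MC38 control, against 3 in B16 KO and 6 in B16 control, of 76.

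The lines were also compared in windows, without gene borders. On chromosome 5, H3K9me3 islands in all 3 libraries covered 14 of 76 windows in MC38 KO, 18 in MC38 control, 3 in B16 KO and 6 in B16 control. Over all windows of the genome the shares were 9.001% in MC38 KO, 12.6% in MC38 control, 14.6% in B16 KO and 12.2% in B16 control. On chromosome 3 the corresponding counts were 5, 5, 7 and 10 of 37. Of the 69 windows tested for H3K9me3 (23 on chromosome 3 and 46 on chromosome 5), edgeR called 1 higher in MC38 control than in B16 control, where 4.18% of all windows were called higher and 7.11% in either direction, and 15 had an unadjusted p under 0.05 (24.2% of all windows). It was 105015001 to 105020000, inside Gbp8, with 7.24, 8.71 and 7.81 RPM in MC38 KO and 6.45, 9.17 and 5.18 RPM in MC38 control libraries and no island in any B16 library (adjusted p = 0.0260 between the control lines). The window entered the test through MC38 libraries alone. Its call was lost with the replicate number as a block, with stricter islands, and without MC38 control replicate 1, 2 or 3, MC38 KO replicate 2, or B16 control replicate 2 or 3. In all, 10 of the 69 windows lay above without overlap, all on chromosome 5, against 14.5% of windows, and 4 lay below, all on chromosome 3, against 13.2%. Outside the genes, the window 142480001 to 142485000 next to Gbp5 was marked in every library, with 13.1 to 19.6 RPM in MC38 and 14.8 to 20.2 RPM in B16 libraries.

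Loss of Setdb1 left no H3K9me3 call on a Gbp gene in edgeR in either line. Gbp5 had 24.1, 52.5 and 0 RPM in MC38 KO libraries, against 13.5, 18.2 and 15.7 RPM in MC38 control libraries, and 17.3, 28.6 and 29.1 RPM in B16 KO libraries, against 13.8, 15.6 and 27.1 RPM in B16 control libraries. The groups overlapped in both lines, and the log2 changes were 0.70 (SE 1.503) in MC38 and 0.41 (SE 1.498) in B16. The library at 0, MC38 KO replicate 3, was the one with the shortest islands in total. Gbp9 averaged 7.58 ± 6.77 RPM in MC38 KO and 20.7 ± 9.32 RPM in MC38 control libraries (log2 change -1.45, SE 2.35), and 4.64 ± 4.16 RPM in B16 KO and 5.18 ± 4.52 RPM in B16 control libraries (log2 change -0.16, SE 2.31). Gbp7, Gbp4, Gbp10 and Gbp6 had islands in 5, 5, 4 and 1 of the 12 libraries. MC38 KO replicate 2 had the highest H3K9me3 level of all 12 libraries on each of these 4 genes, at 20.2, 17.996, 7.59 and 9.72 RPM.

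In MC38 KO, 0 of 8 members were called, where 0.136% of 25675 genes were called. At an unadjusted p under 0.05 there were 0, against 6.85% of genes, DESeq2 called 0, against 7.17%, and 0 members lay above or below without overlap, against 0.596% and 1.73% of genes. Leaving out any 1 library, MC38 KO replicate 3 included, left 0 members called in MC38 KO. In B16 KO, 0 of 8 were called, where 0.312% of genes were called, and 2 had an unadjusted p under 0.05, Gbp8 and Gbp11, each with an island in 1 of 6 B16 libraries, against 7.73% of genes. None lay above or below without overlap, against 5.89% and 9.44% of genes. DESeq2 called 3 in B16 KO, Gbp7 and Gbp11 lower and Gbp4 higher, each with an island in 1 of 6 B16 libraries, and 8.28% of all genes. The difference between the lines in the KO effect was called by edgeR for 0 of 8 members (0.397% of genes; Gbp8 and Gbp11 at an unadjusted p under 0.05, against 9.38% of genes) and by DESeq2 for Gbp7, Gbp4 and Gbp11 (11.2% of genes). No window was called for KO in MC38 (0.0563% of all windows) or in B16 (0.386%), and 0 and 10 of the 69 had an unadjusted p under 0.05 (4.95% and 7.8% of all windows). In MC38 KO, 0 windows lay below or above the control libraries without overlap (1.96% and 0.622% of all windows), and in B16 KO 6 lay below and 0 above (4.7% and 4.93%). Without B16 KO replicate 3, the window 105310001 to 105315000 was called in B16 KO (adjusted p = 0.00642).

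Gbp2b, outside the set but inside the chromosome 3 cluster, had no H3K9me3 island in B16 KO libraries, against 7.53, 6.82 and 7.05 RPM in B16 control libraries (adjusted p = 0.0514 in edgeR). This difference passed without TMM (0.0457), with stricter islands (0.0484), without MC38 control replicate 1 (0.0417), without MC38 KO replicate 3 (0.0237) and in DESeq2 (3.26e-07). Gbp2b had 62.5, 81.8 and 7.10 RPM in MC38 KO libraries, against 3.80, 37.1 and 34.0 RPM in MC38 control libraries (adjusted p = 1). The difference of the KO effects had an adjusted p of 0.0556 in edgeR, of 0.0207 without MC38 KO replicate 3, and of 4.88e-06 in DESeq2. Windows with both marks in all 3 libraries of a group numbered 0 in MC38 KO, MC38 control and B16 KO and 2 in B16 control on chromosome 3, and 1 in MC38 KO and 0 in the other groups on chromosome 5. Over the genome, 0.113% of windows had both marks in MC38 KO, 0.212% in MC38 control, 0.719% in B16 KO and 0.847% in B16 control.

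Genes of the pathway that induces the family were compared in the same fits. Of 16 genes of the interferon gamma receptor and its signalling, all 16 were tested for H3K9Ac. In KO against control, 0 were called in either line, against 0.126% of all genes in MC38 and 0.0839% in B16. Between the control lines 2 were higher and 2 lower in MC38, against 9.8% and 9.67% of all genes (median log2 difference 0.17, against -0.01 over all genes). Ifngr2, a chain of the interferon gamma receptor, averaged 40.6 ± 3.54 RPM in MC38 control and 55.4 ± 2.88 RPM in B16 control libraries (log2 difference -0.45, SE 0.09, adjusted p = 0.00482 in edgeR). Stat2, part of the factor that binds ISRE elements after type I interferon, and Jak2, the kinase bound to the receptor, were higher, with log2 differences of 0.99 (SE 0.24, adjusted p = 0.0158) and 0.40 (SE 0.08, adjusted p = 0.00622). H3K9me3 reached the test on 4 of the 16 genes and was called on 0 in any of these comparisons. The shares over all genes were 0.136% in MC38 KO, 0.312% in B16 KO and 7.14% between the control lines.

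Of the 14 other interferon-inducible GTPase genes, 11 were tested for H3K9Ac. None was called in KO against control in either line, where 0.126% of all genes were called in MC38 and 0.0839% in B16. Between the control lines 2 were lower in MC38, against 9.67% of all genes: Gbp2b and Irgm2, an immunity-related GTPase gene. The log2 difference on Irgm2 was -0.88 (SE 0.27, adjusted p = 0.0496 in edgeR). Gbp2b shares most of its H3K9Ac reads with the Gbp2 region and is not a separate case. For H3K9me3, 1 of 11 was lower in MC38, against 4.31% of all genes, Tgtp2, a T-cell-specific GTPase gene with no island in MC38 control and 7.10 ± 2.70 RPM in B16 control libraries (adjusted p = 0.0145). Of 9 inflammasome partners of the Gbp proteins, 8 were tested for H3K9Ac and 0 called. The shares over all genes were 0.126% in MC38 KO, 0.0839% in B16 KO and 19.5% between the control lines. For H3K9me3, 6 were tested and 1 was lower in MC38, against 4.31% of all genes. It was Nlrp3, the sensor that Gbp5 promotes, with no island in MC38 control and 23.8 ± 17.3 RPM in B16 control libraries (adjusted p = 0.00624). Its H3K9me3 thus differed between the lines in the opposite direction to that of Gbp8.

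By their values over the 12 libraries, the genes most like Gbp2 in H3K9Ac were Chrac1, Tg and Myh9, all on chromosome 15 (Pearson r 0.958, 0.949 and 0.949 among 17659 genes). Those most like Gbp5 in H3K9me3 were Svs2, Tex24 and Itln1 (r 0.957, 0.956 and 0.955 among 10262 genes). These are descriptions over libraries that share line, genotype and replicate number.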

How the data were processed

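H3K9me3 and H3K9Ac were measured by ChIP-seq in 24 libraries, 3 for each line, genotype and mark; 4 input libraries were not analysed here. Per the submitters' processing notes, cutadapt, Bowtie2 2.1.0, SAMtools 0.1.8, SICER 1.1 and deepTools 3.1.1 were used with mm10. The deposited values are the authors' counts of reads per SICER island, called in each library separately, and reads outside islands were not seen here. Island counts were apportioned by overlap to the gene regions and to 5 kb windows, rounded, and tested with edgeR 4.0.16 in R 4.3.3 (quasi-likelihood, 12 libraries of a mark, 1 term per group, TMM on total island reads, mean of at least 10 reads, Benjamini-Hochberg adjusted p under 0.05). Each SE from edgeR is the absolute log2 change divided by the square root of the F statistic, with a spread shared by the libraries in the fit. The fit was run on data simulated from genes with an island in all 12 libraries of a mark. Of the 10 members, 0 met this for H3K9me3 and 5 for H3K9Ac, so that run does not cover libraries at 0. Tables were made with Python 3.11.15. Depth and island calling limit precision: an island is either called or 0. The members, gene lists and comparisons were chosen with earlier results of these data known. Named genes were all members, the nearest protein-coding gene on each side of a cluster, for each list up to 3 called genes by smallest p in a comparison, and the 3 genes per mark most correlated over 12 libraries with the member of highest RPM per kb, on log2(RPM + 0.5); Stat2, a further called gene, and Gbp2b outside its list were named after their values were seen. Alternatives were the replicate number as a block, each library left out, no filter, no TMM, DESeq2 size factors, DESeq2 1.42.0, stricter islands (the 25% with fewest reads per kb left out), only the 6 libraries compared, gene regions without flanks (H3K9me3) or 2 kb around the 5′ end (H3K9Ac), and windows shifted by 2.5 kb. Same-numbered H3K9Ac libraries deviated together (correlations of deviations 0.294 to 0.623), so the numbers, which come from the titles, pair them; for H3K9me3 they did not in replicate 3. A called gene of the lists is not reported here.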

Additional observations from a re-analysis of the deposited data

How the results depend on the processing

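Most of the results followed kept their direction and side of the threshold. Of the counts of calls, 232 stayed within 1.5 times that of the edgeR fit described above and 40 moved. Of the values of single genes, 448 kept both, 21 turned direction, 8 lost the call and 5 gained it. A count that stayed at 0 was taken as kept. In that fit all these counts were 0 except for H3K9me3 between the control lines, with 1 gene (Gbp8) and 1 window. Of the single-gene values, only Gbp8 in H3K9me3 and Gbp2b in H3K9Ac, both between the control lines, were called. The totals therefore say little about how stable a call is. Single genes were followed only with an island in all 12 libraries of the mark or a call in that fit. This leaves out H3K9Ac on Gbp5, Gbp11, Gbp4 and Gbp8, and H3K9me3 except on Gbp8 between the control lines. For H3K9me3 on Gbp genes, DESeq2 called 3 in B16 KO, 3 for the difference of KO effects and 2 between the control lines, where edgeR had 0, 0 and 1. Between the control lines 0 were called with the replicate number as a block or with stricter islands, and 0 to 1 when 1 library was left out. For H3K9Ac on Gbp genes, DESeq2 called 1 in B16 KO, 1 for the difference of KO effects and 2 between the control lines. The block called 2 between the control lines and the 5′-end region 1 (Gbp2, log2 difference -1.19, with the stretch shared with Gbp2b inside that region). The edgeR fit described above had 0 in each. Over all genes between the control lines, the block called 4305 higher and 4302 lower of 33359. The 5′-end region, counted only for genes with a known strand, called 2397. Leaving out 1 library gave 0 to 1 in MC38 KO, for the difference of KO effects and between the control lines. Of H3K9me3 windows, shifting called 1 and leaving out 1 library 0 to 1 in B16 KO; between the control lines the block called 0, stricter islands 0, the 6 libraries alone 4 and leaving out 1 library 0 to 2. Of H3K9Ac windows between the control lines, stricter islands called 1, the 6 libraries alone 1, shifting 1 and leaving out 1 library 0 to 2. The cause was not tested. For Gbp8 H3K9me3 between the control lines the adjusted p was 0.101 with the block, 0.127 with stricter islands and 0.00501 to 0.0896 when 1 library was left out.

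Signs of uncalled H3K9Ac changes turned in MC38 KO at the 5′ end (Gbp3 0.084, Gbp2 0.094), and when 1 library was left out, with ranges of -0.027 to 0.16 for Gbp9 in B16 KO, in MC38 KO of -0.14 to 0.54 for Gbp7, -0.23 to 0.15 for Gbp3, -0.20 to 0.52 for Gbp2b, -0.23 to 0.25 for Gbp2 and -0.18 to 0.11 for Gbp9, for the difference of KO effects of -0.0052 to 0.55 for Gbp2, -0.24 to 0.042 for Gbp9 and -0.21 to 0.18 for Gbp6, and between the control lines of -0.059 to 0.33 for Gbp6. The median H3K9me3 log2 difference of all genes between the control lines was -0.20 with TMM, -0.65 without it and -0.29 with DESeq2 size factors. Counts over all genes moved more, from 80 in edgeR to 2126 in DESeq2 for H3K9me3 in B16 KO and from 28 to 1024 for H3K9Ac. Island calling limits depth: where a group has no island, reads below the calling threshold are unseen and no fold can be given.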
